A study of Mus musculus with 8 samples.

Results

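The genes described here are 8 lipid carriers of the brain: the apolipoproteins Apoe, Apod and Clu, the transporter Abca1, the receptor Lrp1 and the fatty-acid binding proteins Fabp3, Fabp5 and Fabp7. They were taken by symbol, through their Ensembl identifiers, from a table of 22430 genes, and all 8 were found. The table holds gene counts from Oxford Nanopore long-read sequencing of brain RNA. Each library came from a hemisphere of a different male C57Bl/6JRj mouse, an unmanipulated inbred strain, with 4 libraries from 6-month-old (6m, young-adult) and 4 from 24-month-old (24m, aged) animals. The study's methods describe direct sequencing of RNA molecules, while the sample labels name a directional poly(A) cDNA kit, and the methods were followed here. The question put to the data is which of these genes differ in mRNA abundance between 24m and 6m.

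Lipids travel between brain cells in small particles built around apolipoproteins. Abca1 loads cholesterol and phospholipid onto apolipoprotein E, which astrocytes secrete, and neurons take the particles up through receptors of the LDL receptor family, Lrp1 among them. Inside the cell, fatty acids are insoluble and are carried by small cytosolic binding proteins. Variants of human APOE and CLU are known for their association with late-onset Alzheimer's disease, and Apod is known as a gene whose expression increases in the ageing brain.

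Total counts ran from 573152 in 6m replicate 2 to 1255424 in 24m replicate 4. On the second principal component of the log2 values of all tested genes, 24m replicate 1 stood apart, at 38.4 against -17.5 to 7.48 for the other 7 libraries. Results were therefore also computed without these 2 libraries, 24m replicate 1 and 6m replicate 2. Levels are given as CPM, a gene's counts set against the library total, with TMM factors that adjust for composition. A gene was tested where its mean count exceeded 5, which 9375 genes did, and was called changed at an adjusted p (padj) of at most 0.05 with a log2FC (log2 of 24m over 6m) of at least 0.58 in size, the thresholds of the study. Among the 8 carriers 7 passed this filter, and Abca1 did not.

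By level per kilobase of the canonical transcript, the carriers ran from 1880 down to 0.1939 at 6m and from 1945 to 0.1808 at 24m. At 6m, Apoe came first at 1880 ± 50.7 CPM per kilobase (SD, n = 4), followed by Clu at 1053 ± 47.4. Fabp5 (302.1 ± 13.95) and Apod (293.9 ± 20.9) came next, and their libraries overlapped, so their order per kilobase at 6m was not resolved. In CPM, without division by length, Apod (560.5 to 661.8) lay above Fabp5 (286.3 to 318.2) at 6m with no overlap. Fabp3 (227.6 ± 10.9), Fabp7 (28.31 ± 7.3), Lrp1 (11.64 ± 0.976) and Abca1 (0.1939 ± 0.283) completed the order, with no overlap between neighbours. At 24m Apod (368.4 ± 44.4) stood above Fabp5 (274.7 ± 31.6), and the libraries of these genes no longer overlapped. The order was otherwise that of 6m. A nanopore RNA read comes from a single molecule, so division by length places the long transcripts, Lrp1 with 14906 bases and Abca1 with 10267, lower than their counts alone would. It likewise lowers Apod, with 2101 bases, against Fabp5, with 993. In CPM, without division by length, Lrp1 stood above Fabp7 at both ages, the reverse of their order per kilobase. Their means were 173.5 against 26.69 CPM at 6m and 196.4 against 18.5 CPM at 24m.

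**Figure D1:**
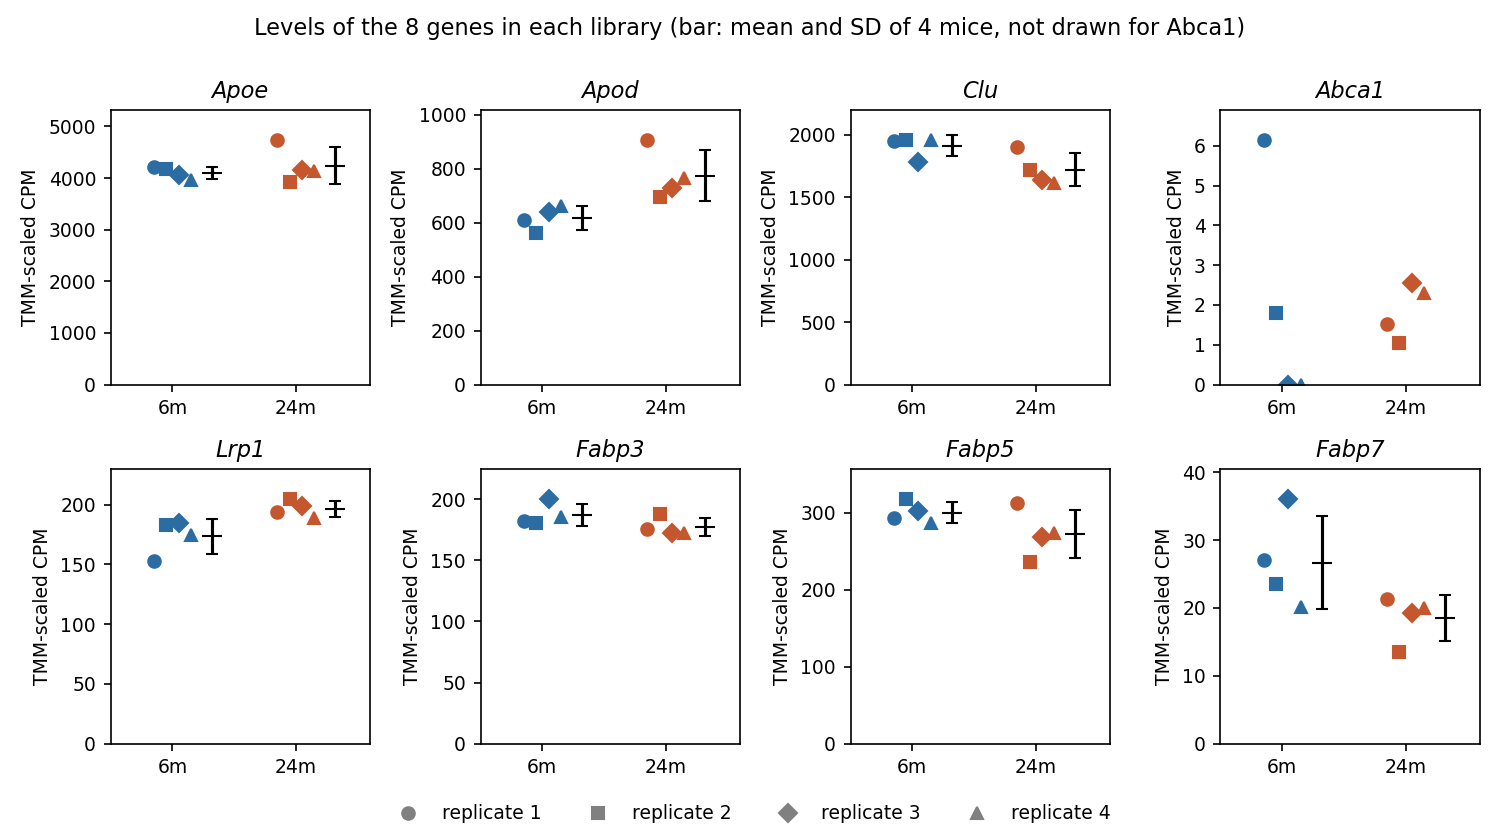
Level of each of the 8 genes in TMM-scaled CPM (vertical axes, linear and from 0) in the 4 libraries of 6m (blue) and of 24m (red); each symbol is a mouse and the bars give mean and SD, left out for Abca1. The 24m libraries of Apod (694.5 to 906.9) and Lrp1 (188.7 to 204.8) all lie above those of 6m, while the ages overlap for the other 6 genes.

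Apoe encodes apolipoprotein E, the main lipid carrier secreted by astrocytes. It lies at chr7:19430034-19434947 on the minus strand of GRCm39 (ENSMUSG00000002985). Its counts were 3422, 2306, 3254 and 3162 in 6m replicates 1 to 4, and 3112, 3777, 3245 and 5405 in the 24m replicates. Scaled, these are 4212, 4170, 4050 and 3971 CPM at 6m against 4743, 3927, 4153 and 4146 CPM at 24m. Only 24m replicate 1 lay above the 6m range, and the ages overlapped. On average (± SD, n = 4) Apoe was at 4101 ± 110.5 at 6m against 4242 ± 350.3 at 24m, in CPM, a log2FC of 0.05 with a standard error (SE) of 0.0872 (95% interval -0.13 to 0.23, padj = 0.737, edgeR's quasi-likelihood test, adjusted by Benjamini-Hochberg). Only 8.19% of all tested genes had a smaller log2FC in size. Apoe ranked between 9 and 15 among all genes by count in every library.

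The value for Apoe depended on the scaling. In CPM without a scaling factor, the 24m libraries (4180 to 4712) lay above the 6m libraries (3861 to 4056) with no overlap, and the log2FC was 0.15. The median log2FC of all tested genes was 0.1 on that scale and -0.003 with TMM factors. With quantile normalization, which the study also applied, the log2FC was 0.25 in DESeq2 (padj = 0.027) and 0.23 in limma-voom (padj = 0.00583). The difference in Apoe was under the 0.58 minimum in each of the settings run.

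Apod encodes apolipoprotein D, a lipocalin that binds arachidonic acid and other small lipids and is made by glia, mature oligodendrocytes included. It lies at chr16:31115010-31135355 on the minus strand (ENSMUSG00000022548). Its counts were 494, 310, 514 and 527 at 6m, and 595, 668, 569 and 999 at 24m. In CPM these are 608.0, 560.5, 639.7 and 661.8 at 6m against 906.9, 694.5, 728.1 and 766.3 at 24m. Every 24m library lay above every 6m library, and 24m replicate 1 was the highest. Apod averaged (± SD, n = 4) 617.5 ± 43.92 at 6m against 774.0 ± 93.37 at 24m, in CPM, a fold of 1.25 (95% interval 1.09 to 1.43). The log2FC of 0.32 (SE 0.0945) passed the adjusted p in edgeR's quasi-likelihood test (padj = 0.0168) and stayed under the fold minimum, so Apod was not called changed. Without 6m replicate 2 the log2FC was 0.29 (padj = 0.0583), and without both 24m replicate 1 and 6m replicate 2 it was 0.20 (padj = 0.0709). In the other 19 settings it ranged from 0.25 to 0.44 and padj was at most 0.05.

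Clu encodes clusterin, also called apolipoprotein J, a secreted chaperone made largely by astrocytes. It lies at chr14:66190200-66218999 on the plus strand (ENSMUSG00000022037). Its counts were 1582, 1084, 1433 and 1560 at 6m, and 1249, 1654, 1279 and 2108 at 24m. In CPM these are 1947, 1960, 1784 and 1959 at 6m against 1904, 1720, 1637 and 1617 at 24m. The 6m level lay within a narrow band except for replicate 3, and at 24m only replicate 1 lay above the lowest 6m library. Means (± SD, n = 4) were 1912 ± 86.14 at 6m against 1719 ± 130.8 at 24m, in CPM, a log2FC of -0.15 (SE 0.0853, 95% interval -0.33 to 0.02, padj = 0.206, edgeR's quasi-likelihood test). Without 24m replicate 1 it was -0.20 (padj = 0.0174), and without both that library and 6m replicate 2 it was -0.20 (padj = 0.0372). With quantile normalization it was 0.08, in the opposite direction, in DESeq2 (padj = 0.58) and in limma-voom (padj = 0.345).

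Ratios of counts within a library need no scaling factor, and over these the apolipoproteins shifted against each other. For each 100 counts of Apoe there were 14.4, 13.4, 15.8 and 16.7 counts of Apod at 6m and 19.1, 17.7, 17.5 and 18.5 at 24m. Clu went the other way, with 46.2, 47.0, 44.0 and 49.3 counts per 100 of Apoe at 6m and 40.1, 43.8, 39.4 and 39.0 at 24m. Neither ratio overlapped between the ages, though for Clu the nearest libraries differed only by 44.0 against 43.8. Counted per Apoe count, 8.73% of all tested genes were higher at 24m without overlap, and 13.3% were lower. Apod per 100 counts of Clu had the widest gap, at 28.6 to 35.9 at 6m (32.4 ± 3.15) and 40.4 to 47.6 at 24m (45.0 ± 3.38; SD, n = 4). The ratio of Apod to Clu stood higher at 24m whichever factor scales the libraries, since a factor cancels within a library. These ratios show unequal change, and not which of their members moved. They were chosen after the levels had been seen, and no test was run on them. The share of all tested genes that separate by age per Clu count was not computed, so Apod per Clu has no such share beside it.

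**Figure D2:**
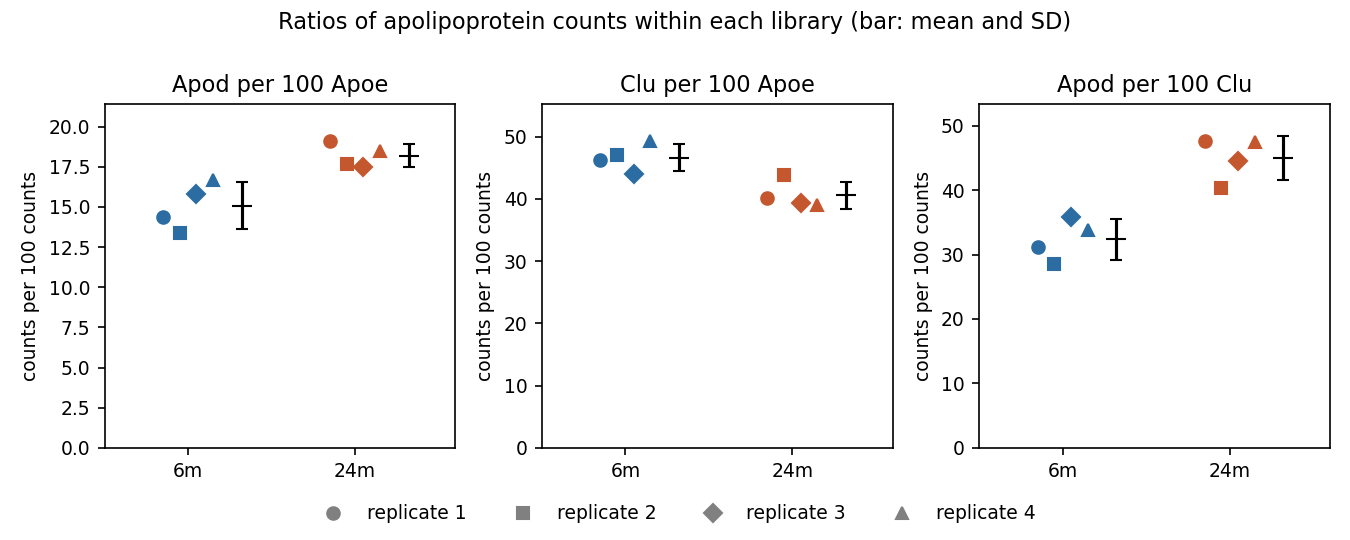
Counts of Apod per 100 counts of Apoe, of Clu per 100 of Apoe and of Apod per 100 of Clu (vertical axes, linear and from 0) in each library of 6m (blue) and 24m (red), with mean and SD as bars. Apod per Clu lies between 28.6 and 35.9 at 6m and between 40.4 and 47.6 at 24m, and Clu per Apoe is lower at 24m, with 44.0 and 43.8 as the nearest libraries.

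As shares of the summed counts of the 3 apolipoproteins, Apoe took 60.2% to 62.6% at 6m and 61.9% to 63.7% at 24m, which overlap. Apod took 8.38% (6m replicate 2, exact binomial 95% interval 7.51 to 9.32) to 10.04% (6m replicate 4, 9.24 to 10.9) at 6m, and 10.95% (24m replicate 2, 10.2 to 11.8) to 12.01% (24m replicate 1, 11.1 to 12.9) at 24m. Clu took 27.6% to 29.7% at 6m and 24.8% to 27.1% at 24m. The intervals cover counting error only, and those of the nearest libraries of each age overlap for Apod. The 8 carriers together made up 0.69% to 0.715% of all counts at 6m and 0.743% to 0.82% at 24m. In TMM-scaled CPM their sum overlapped between the ages, at 7196 to 7428 against 6984 to 8258.

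Some markers of the cells that make these transcripts also differed between the ages. The summed level of 10 oligodendrocyte markers was 2146 to 2697 CPM at 6m and 2930 to 3807 CPM at 24m. By adjusted p alone 6 of 10 passed, against 21.7% of all tested genes and 33.9% of those with a mean count over 50. With both thresholds 2 of 10 were called changed, among them Mbp of the myelin sheath, against 14.5% of all tested genes. None of the 10 was at 0 in all libraries. Per 100 CPM of these markers, Apod was 23.8, 26.1, 28.4 and 24.5 CPM at 6m and 24.2, 20.2, 19.1 and 26.2 CPM at 24m, which overlap. Mbp was the most abundant of these markers, and without it the ratio overlapped too, at 43.1 to 49.0 against 39.7 to 51.7. Set against each marker alone, Apod overlapped between the ages for 9 of 10 and was higher at 24m for Mag, at 153 to 188 CPM per 100 of Mag at 6m and 200 to 239 at 24m. Within the list, Mag had a log2FC of -0.08 (padj = 0.597) and Opalin one of -0.27 (padj = 0.349). The 14 astrocyte markers summed to 3237 to 3943 CPM at 6m and 3571 to 4271 CPM at 24m, which overlap. Of the 12 tested, 4 were called higher, among them Gfap with a log2FC of 1.94, and 2 lower. Among all tested genes these shares were 10.3% and 4.17%. The 11 microglia markers, which belong to a cell type that makes Apoe in disease, summed to 806.2 to 866.2 CPM at 6m and 999.1 to 1271 CPM at 24m. The 10 neuron markers summed to 4671 to 4887 CPM at 6m against 5146 to 5343 CPM at 24m, and the 8 endothelial markers to 171.8 to 216.6 against 163.4 to 184.3 CPM, which overlap. In RNA of a whole hemisphere, more or fewer cells of a type cannot be told apart from more or less RNA in each cell, and the part of cell composition in these results was not tested.

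Markers of blood and of the tissues lining the brain were present too. All 5 blood markers, the haemoglobin genes and Alas2, were called lower at 24m, against 4.17% of all tested genes. Their sum was 6090 to 10030 CPM at 6m and 3350 to 6283 CPM at 24m, which overlap. The 6 choroid plexus markers summed to 3085 to 4603 CPM at 6m and 2388 to 4608 CPM at 24m, with 0 called changed, and the 6 meningeal markers to 3247 to 4000 and 3187 to 3596 CPM, with 0 called changed. Their part in the levels of the apolipoproteins was not tested.

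Abca1 encodes the ATP-binding cassette transporter that exports cholesterol and phospholipid to lipid-poor apolipoproteins. It lies at chr4:53030787-53159900 on the minus strand (ENSMUSG00000015243). Its counts were 5, 1, 0 and 0 at 6m, and 1, 1, 2 and 3 at 24m. A count of 0 in 6m replicates 3 and 4 allows up to 3.58 and 3.66 CPM. Summed over libraries, Abca1 had 6 counts at 6m, or 1.95 CPM (exact Poisson 95% interval 0.716 to 4.25), and 7 counts at 24m, or 1.96 CPM (0.79 to 4.05). Of the 6 counts at 6m, 5 came from replicate 1. A two-sided exact permutation test of the mean CPM gave p = 1.0 over 70 splits, with 0.0286 as the smallest p this design allows. A difference in Abca1 was not detectable at this depth.

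Lrp1 encodes LDL receptor-related protein 1, a large endocytic receptor of neurons and glia that takes up particles carrying apolipoprotein E. It lies at chr10:127374012-127457017 on the minus strand (ENSMUSG00000040249). Its counts were 124, 101, 148 and 139 at 6m, and 127, 197, 155 and 246 at 24m. In CPM these are 152.6, 182.6, 184.2 and 174.5 at 6m against 193.6, 204.8, 198.4 and 188.7 at 24m. Every 24m library lay above every 6m library, with the lowest value in 6m replicate 1, and the same held in CPM without a scaling factor. Means (± SD, n = 4) were 173.5 ± 14.54 at 6m against 196.4 ± 6.879 at 24m, in CPM. The log2FC of 0.18 (SE 0.111, 95% interval -0.05 to 0.41) did not pass the adjusted p in edgeR's quasi-likelihood test (padj = 0.258). Counting error alone gives a coefficient of variation of 8.84% at 6m at these counts, against 8.38% seen between libraries, and one of 7.43% at 24m, against 3.5% seen. The 24m libraries of Lrp1 thus lay closer together than counting error alone gives. Per 100 counts of Apoe, Lrp1 had 3.62 to 4.55 counts at 6m and 4.08 to 5.22 at 24m, which overlap.

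The fatty-acid binding proteins are paralogues with the same fold, and each is typical of different cells. Fabp3 is found in neurons, Fabp5 in glia, neurons and the endothelium, and Fabp7 in astrocytes and radial glia. Their coding sequences are similar but far from identical. Over 399 aligned bases, Fabp3 and Fabp7 shared 64.2%, and Fabp5 shared 55.4% with either. The stretch of 30 bases most alike in all 3 is printed to show how far reads of one can be told from another, with capitals for the 21 bases that are the same in all 3. It spans the junction of exons 1 and 2 in each gene, all on the plus strand of GRCm39, with the intron left out of the printed letters. In Fabp3 it runs from chr4:130202618-130206087, in Fabp5 from chr3:10077753-10080034 and in Fabp7 from chr10:57661152-57661605.
Fabp3: tTTTGAtGAcTACATGAAgtcaCTcGGtGT
Fabp5: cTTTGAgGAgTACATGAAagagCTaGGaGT
Fabp7: tTTTGAtGAgTACATGAAagctCTgGGcGT
Even here 9 of 30 bases differ in at least 1 gene, and the longest run of identical bases anywhere in an aligned pair was 20, between Fabp3 and Fabp7. No transcript in the annotation was a near-identical copy of any of the 8 carriers.

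Fabp3 lies at chr4:130202388-130209259 (ENSMUSG00000028773). Its counts were 148, 100, 161 and 148 at 6m, and 115, 181, 135 and 225 at 24m. In CPM these are 182.2, 180.8, 200.4 and 185.8 at 6m against 175.3, 188.2, 172.8 and 172.6 at 24m. Only 24m replicate 2 fell inside the 6m range. Means (± SD, n = 4) were 187.3 ± 8.974 at 6m against 177.2 ± 7.422 at 24m, in CPM, with a log2FC of -0.08 (SE 0.108, 95% interval -0.30 to 0.14, padj = 0.64 in edgeR's quasi-likelihood test). The sign turned, to 0.02, without scaling factors. Exons of Fabp3 share 1960 bases with Zcchc17 on the opposite strand, and whether the counting used strand is not given in the sources used here, so some reads may belong to that gene.

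Fabp5 lies at chr3:10077602-10081674 (ENSMUSG00000027533). Its counts were 238, 176, 243 and 228 at 6m, and 205, 227, 210 and 357 at 24m. In CPM these are 292.9, 318.2, 302.4 and 286.3 at 6m against 312.5, 236.0, 268.7 and 273.8 at 24m. At 24m, replicate 1 lay within the 6m range and the other 3 below it. Fabp5 averaged (± SD, n = 4) 300.0 ± 13.86 at 6m against 272.8 ± 31.33 at 24m, in CPM, with a log2FC of -0.14 (SE 0.102, 95% interval -0.35 to 0.07, padj = 0.353 in edgeR's quasi-likelihood test). Fabp5 had 151 to 176 counts per 100 of Fabp3 at 6m and 125 to 178 at 24m, which overlap.

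Fabp7 lies at chr10:57660956-57664554 (ENSMUSG00000019874). Its counts were 22, 13, 29 and 16 at 6m, and 14, 13, 15 and 26 at 24m. In CPM these are 27.08, 23.51, 36.09 and 20.09 at 6m against 21.34, 13.52, 19.20 and 19.94 at 24m. The ages overlapped, with 6m replicate 3 the highest and 24m replicate 2 the lowest. Fabp7 averaged (± SD, n = 4) 26.69 ± 6.886 at 6m against 18.50 ± 3.439 at 24m, in CPM. The log2FC of -0.55 was the largest in size among the carriers, and so was its SE of 0.257 (95% interval -1.07 to -0.02, unadjusted p = 0.0425, padj = 0.131, edgeR's quasi-likelihood test). Without 6m replicate 3 it was -0.35 (padj = 0.431). At 13 to 29 counts in a library, counting error alone gives a coefficient of variation of 22.4% at 6m and 24.3% at 24m, against 25.8% and 18.6% observed. Of 6 markers of immature neurons and progenitors 0 passed the filter, and Dcx and Top2a had 0 counts in every library. Of 5 markers of oligodendrocyte progenitors 2 were tested and 0 changed. Bcas1 was past the adjusted p alone (log2FC 0.47, padj = 0.011), as were 21.7% of all tested genes. The 5 markers summed to 135.7 to 152.8 CPM at 24m against 98.32 to 113.2 CPM at 6m, higher without overlap. Among single genes, 21.1% of all tested genes did not overlap. Bcas1 had a mean count of 95.62, and Cspg4, the other tested marker, one of 7.625 (log2FC 0.03).

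Among the 7 carriers tested, 0 were called changed in edgeR's quasi-likelihood test, where 14.5% of all tested genes were. By adjusted p alone 1 of 7 passed, Apod, against 21.7% of all tested genes, with 0 of 7 lower against 9.42%, and 2 of 7, Apod and Fabp7, had an unadjusted p under 0.05, against 34.3% of all tested genes. DESeq2 and limma-voom also called 0 of 7 changed. In TMM-scaled CPM, 2 of 7, Apod and Lrp1, were higher at 24m without overlap of the libraries, against 11.1% of all tested genes, and 0 of 7 were lower, against 9.96%. Over both directions, libraries did not overlap for 21.1% of all tested genes. With library sizes alone, 3 of 7 did not overlap, Apoe, Apod and Lrp1, all higher at 24m, against 20.3% of all tested genes in either direction. Of the 7 carriers 6 had a mean count over 50. Of all genes at that depth, 33.9% passed the adjusted p alone and 11.8% both thresholds, against 1 of 6 and 0 of 6 carriers. The median log2FC of the 7 was -0.08, and that of all tested genes was -0.003. In the edgeR fit with TMM factors, the 95% intervals of Apoe, Apod, Clu, Lrp1, Fabp3 and Fabp5 end inside the 0.58 minimum on both sides. Only that of Fabp7 reaches past it. Intervals were not computed for the alternatives, where Apod reached 0.44 (SE 0.0919) in DESeq2 on quantile-normalized counts.

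**Figure D3:**
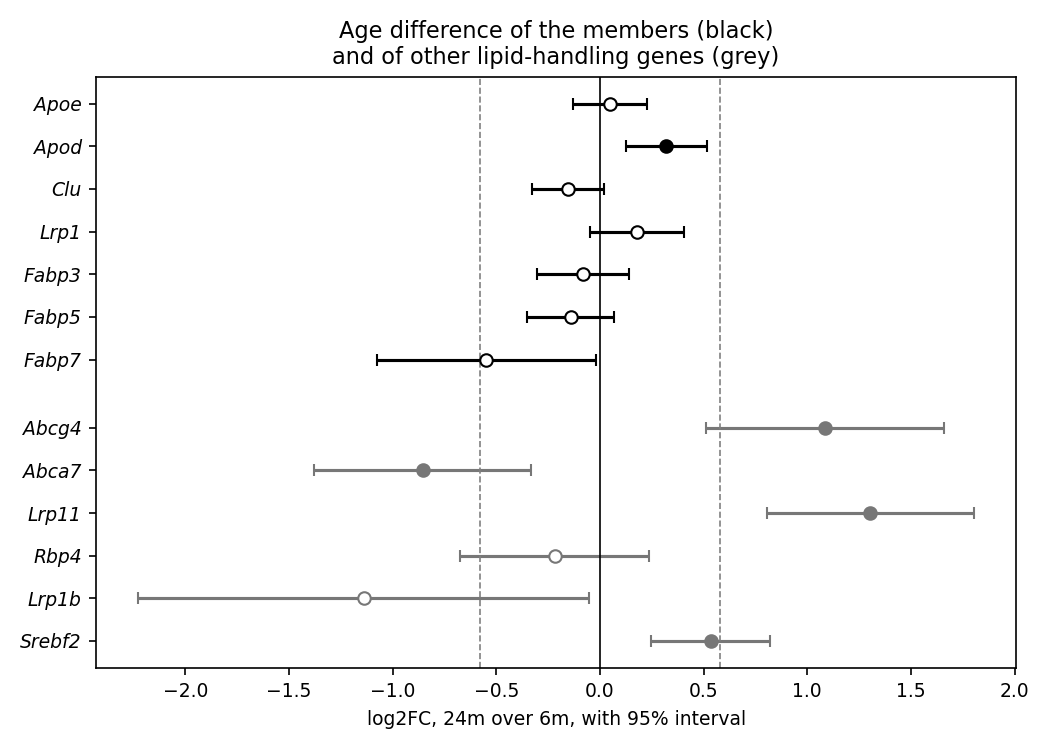
log2FC of 24m over 6m with its 95% interval (horizontal axis) for the 7 tested carriers (black) and 6 other lipid-handling genes (grey); filled points have padj of at most 0.05 and dashed lines mark 0.58 in either direction. Apod, at 0.32, is the only filled point among the carriers and lies inside the dashed lines. Abcg4, Lrp11 and Abca7 lie outside them as filled points, and Lrp1b, at -1.14, as an open point.

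The direction of Apod, Lrp1, Fabp5 and Fabp7 was the same in all 21 alternative settings. Across them the log2FC ran from 0.20 to 0.44 for Apod, from 0.13 to 0.29 for Lrp1, from -0.19 to -0.04 for Fabp5 and from -0.66 to -0.35 for Fabp7. Those of Apoe, Clu and Fabp3 changed sign in at least 1 setting.

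**Figure D4:**
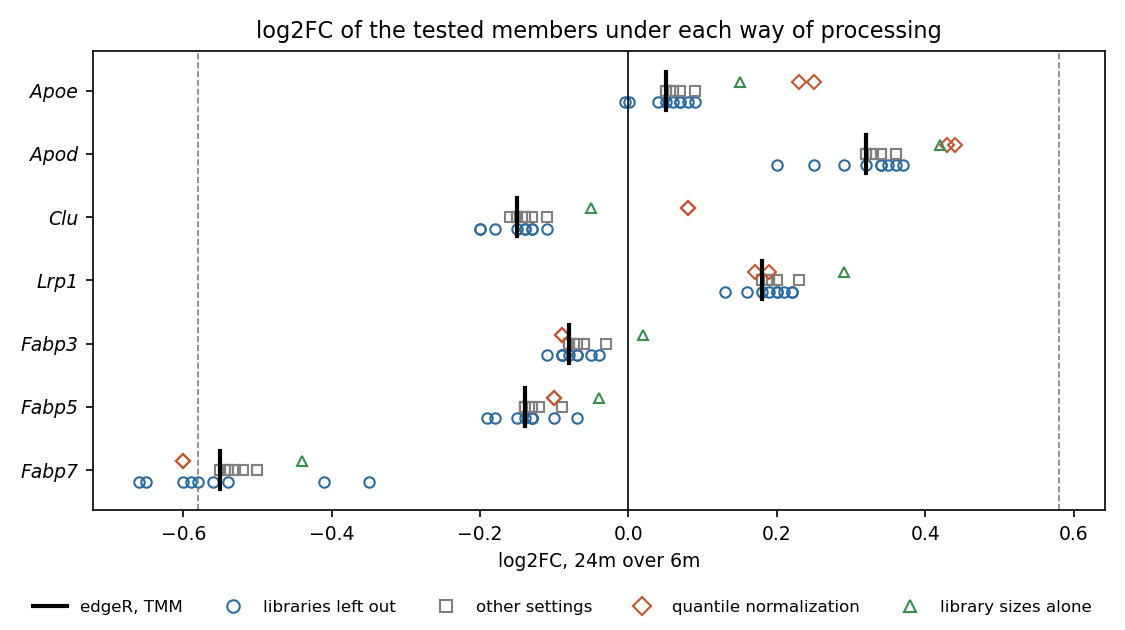
log2FC of 24m over 6m (horizontal axis) of the 7 tested carriers with edgeR and TMM factors (black bar) and under each alternative: libraries left out (circles), quantile normalization (diamonds), library sizes alone (triangles) and other settings (squares), with dashed lines at 0.58 in either direction. Clu moves from -0.15 to 0.08 and Apoe from 0.05 to 0.25 with quantile normalization, and Apod stays between 0.20 and 0.44.

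The rest of the lipid-handling genes were read from 6 lists of apolipoproteins and lipoprotein modifiers, ABC lipid transporters, LDL receptor family members and other lipoprotein receptors, fatty-acid binding and uptake proteins, nuclear receptors and regulators of lipid genes, and proteins of intracellular sterol transfer. Without the 8 carriers they hold 110 genes, of which 59 were tested and 13 had 0 counts in every library. Of the 59, 2 were called higher at 24m and 1 lower, against 10.3% and 4.17% of all tested genes. Their median log2FC was 0.03.

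Abcg4, a transporter that exports cellular sterols in neurons and glia, had levels of 12.31, 7.233, 12.45 and 17.58 at 6m against 22.86, 34.31, 26.87 and 24.55 at 24m, in CPM. It rose by a log2FC of 1.09 (SE 0.279, padj = 0.00688, edgeR's quasi-likelihood test), with no overlap, on 4 to 33 counts in a library. Lrp11, a little-studied member of the LDL receptor-related family, had levels of 16.0, 25.31, 19.91 and 13.81 at 6m against 28.96, 59.26, 47.35 and 42.95 at 24m, in CPM. It rose by 1.30 (SE 0.244, padj = 0.000466), also with no overlap. Its exons share 1173 bases with Pcmt1 on the opposite strand, so some of its reads may belong to that gene. Both Abcg4 and Lrp11 were past both thresholds in every alternative that tested them.

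Abca7, the nearest relative of Abca1 by coding sequence and itself a gene associated with Alzheimer's disease in humans, had 38.16, 28.93, 44.81 and 27.63 CPM at 6m. At 24m it had 32.01, 17.67, 16.64 and 15.34 CPM, so replicate 1 lay within the 6m range and the other 3 below it. It fell by 0.85 on the log2 scale (SE 0.255, padj = 0.0179, edgeR's quasi-likelihood test). The call was lost in 7 of 21 alternatives, with DESeq2 (padj = 0.0609), with DESeq2 on quantile-normalized counts (padj = 0.0573) and without any of 5 single libraries, 6m replicate 1 (padj = 0.0593) or 3 (padj = 0.0906) and 24m replicate 2 (padj = 0.0614), 3 (padj = 0.0518) or 4 (padj = 0.0687). Without 24m replicate 1 the fall was larger, with a log2FC of -1.09.

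By list, 4 of 19 apolipoproteins and modifiers were tested, Apoc1, Lcat, Lrpap1 and Pltp, all with a negative log2FC (median -0.21) and 0 changed, though Pltp, which transfers phospholipid between lipoproteins, had an unadjusted p of 0.0117 (log2FC -0.39, padj = 0.0526). The summed level of the list was lower at 24m without overlap, at 361.3 to 391.7 against 403.3 to 487.4 CPM. Exons of Pltp share 1252 bases with Ctsa on the opposite strand, so some of its reads may belong to that gene. Of 18 ABC transporters 10 were tested (median 0.27), with Abcg4 and Abca7 changed. Of 21 receptors 13 were tested (median 0.14), with Lrp11 changed. The summed level of the receptors was higher at 24m without overlap, at 335.2 to 372.4 against 300.2 to 324.8 CPM. That sum includes Lrp11, which alone ran from 13.81 to 25.31 CPM at 6m and from 28.96 to 59.26 CPM at 24m. Whether the other receptors separate by age without Lrp11 was not tested. The sums of the ABC transporters, the nuclear receptors and the intracellular transfer proteins overlapped between the ages. So did the sum of all 6 lists without the carriers, at 3603 to 3832 CPM at 6m and 3664 to 3698 CPM at 24m. Among single genes, 21.1% of all tested genes did not overlap. Sorl1, a sorting receptor, had a log2FC of -0.46 (padj = 0.0576).

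Of 26 proteins of fatty-acid binding and uptake 14 were tested (median -0.09) and 0 were changed. Their summed level was lower at 24m without overlap, at 1338 to 1434 against 1441 to 1581 CPM, with 1434 and 1441 as the nearest libraries. Among single genes, 9.96% of all tested genes were lower at 24m without overlap. Mfsd2a, which carries lysophosphatidylcholine with docosahexaenoic acid across the blood-brain barrier, had a log2FC of -0.58 (padj = 0.108). Dbi, which binds acyl-CoA and had the highest mean count of the 14, at 491.4, had one of -0.13 (padj = 0.328). Of 10 nuclear receptors and regulators 6 were tested and 0 changed. Srebf2, the transcription factor that drives cholesterol synthesis and uptake, passed the adjusted p alone, from 97.74 ± 14.94 CPM at 6m to 140.9 ± 14.6 CPM at 24m (± SD, n = 4, log2FC 0.53, padj = 0.0077), with no overlap. Its exons share 686 bases with Shisa8 on the opposite strand, so some of its reads may belong to that gene. Nr1h2, which encodes the liver X receptor beta that activates Abca1 and Apoe, had a log2FC of -0.12 (padj = 0.628). Of 16 proteins of intracellular transfer 12 were tested and 0 changed, with unadjusted p under 0.05 for Osbp (log2FC 0.93, padj = 0.0816) and Vps13a (log2FC -1.19, padj = 0.0579). DESeq2 and limma-voom with quantile normalization also called 0 in each of these 3 lists and in the apolipoprotein list.

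**Figure D5:**
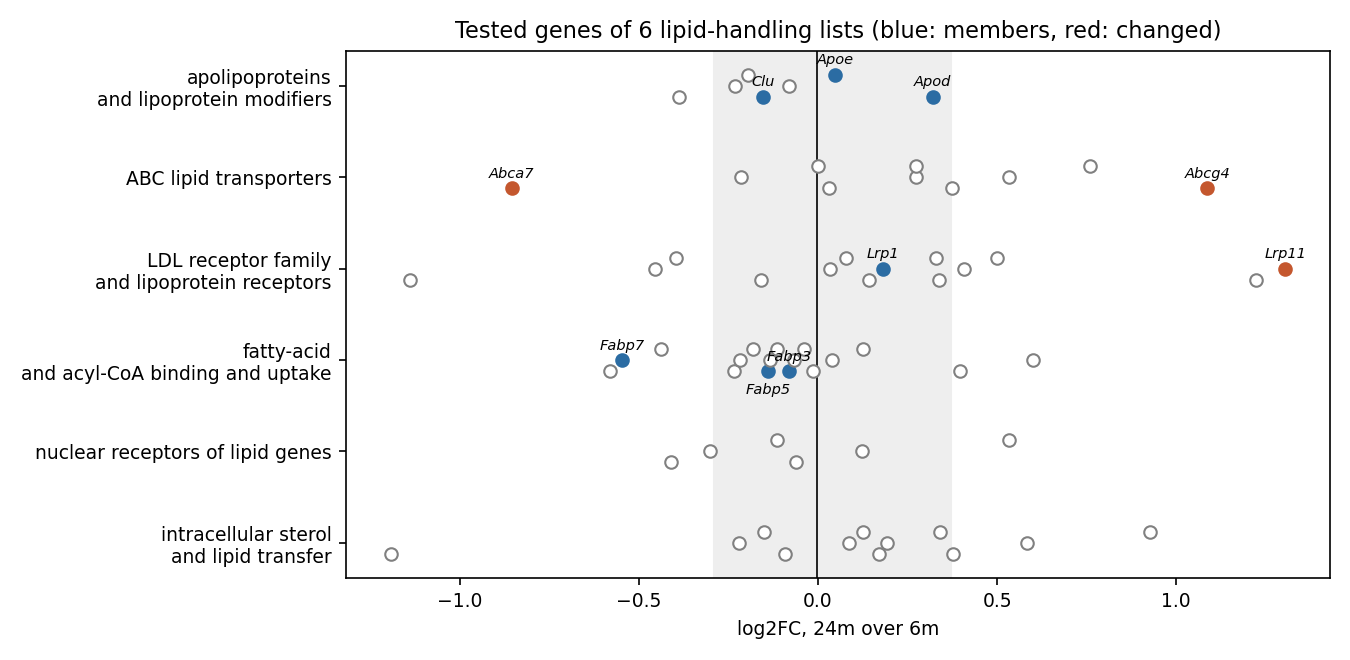
log2FC of 24m over 6m (horizontal axis) of every tested gene in the 6 lipid-handling lists (rows, with points offset for legibility), with the 7 tested carriers in blue and changed genes in red; the grey band holds the middle 50% of all tested genes, from -0.29 to 0.37. Abca7 at -0.85, Abcg4 at 1.09 and Lrp11 at 1.30 are changed, and all carriers but Fabp7 lie inside the band.

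A nearest relative by coding sequence was found in the lists for each carrier but Clu, and that of Fabp7 was Fabp3. The matches were unequal. That of Apod to Rbp4 rested on a best segment of 17 codons, and that of Apoe to Apoa4 on 20.3% identity over 158 codons. For Lrp1 and Lrp1b the best segment had 70.5% identity over 658 codons. Apoa4, nearest to Apoe, and Pmp2, nearest to Fabp5, were listed at 0 counts in every library, and Fabp4, nearest to Fabp3, had 1 count in all. Pmp2 shares 1224 exon bases on the same strand with Gm37389, also at 0, so reads on both may have been left uncounted and its 0 does not show absence. Rbp4, the nearest lipocalin to Apod in the lists, averaged 33.38 ± 9.285 at 6m against 29.1 ± 5.507 at 24m, in CPM (log2FC -0.22, padj = 0.527, edgeR's quasi-likelihood test). Lrp1b, nearest to Lrp1, averaged 9.388 ± 4.427 at 6m against 4.114 ± 3.866 at 24m, in CPM (log2FC -1.14, padj = 0.127). It went opposite in sign to Lrp1 on 0 to 11 counts in a library.

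No carrier passed both thresholds, so the genes most alike in profile were sought for Apod, which passed the adjusted p alone, a choice made after its values were seen. Among 2719 other genes with a mean count over 50, the closest over the 8 libraries were Hid1, with a root mean square difference of 0.0778 in centred log2 CPM, and Mink1, with 0.0827, where the median candidate differed by 0.301. Both were picked for likeness over these libraries, and like Apod both were highest in 24m replicate 1, at 126.5 CPM for Hid1 and 208.8 CPM for Mink1. In edgeR's quasi-likelihood test Hid1 had a log2FC of 0.23 (padj = 0.279) and Mink1 one of 0.37 (padj = 0.0353).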

How the data were processed

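The deposited table holds raw counts per gene for 8 libraries, which the authors made from MinION reads mapped to GRCm39 with minimap2 (version 2.24 in the submitters' processing notes) and counted with featureCounts against Ensembl gene models. Strand and multimapping settings are not given in the sources used here. Of the lipid-handling genes named, Dbi (296 bases) and Rbp4 (222 bases) also share exon bases with a counted gene on the opposite strand. Symbols, positions and transcripts came from GENCODE vM39, matched by Ensembl identifier (22281 of 22430 genes, 149 unmatched and kept). All columns were mapped to samples by name. Genes with a mean count over 5 were fitted together in edgeR 4.0.16 (R 4.3.3, TMM factors, quasi-likelihood test), and p-values were adjusted by the Benjamini-Hochberg method over all 9375. The SE was taken from the F statistic. DESeq2 1.42.0, limma 3.58.1, other factors, filters and left-out libraries served as alternatives. The fitting steps were tested on simulated data. Paralogues and near copies were searched with BLAST+ 2.17.0 and aligned with MAFFT 7.526.

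The carriers, gene lists and marker lists were chosen with earlier results of these data known. All 8 carriers, up to 5 changed genes of each list, the nearest relative of each carrier and the 2 most alike profiles of a changed carrier are named; Srebf2, some genes with an unadjusted p under 0.05, Dbi, Nr1h2 and the genes alike to Apod were added after their values were seen. Libraries ranged from 573152 to 1255424 counts, and a count of 0 allows up to 3 counts. Intervals of counts and shares cover counting error only. Same-numbered libraries of the ages were not paired: their deviations correlated at -0.16 to 0.0647 across genes. A few genes of the lists are counted but not reported here by name.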

Additional observations from a re-analysis of the deposited data

Results flagged for a closer look

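In 5 of 52 groups of 4 libraries examined, 1 library stood farther from the other 3 than Dixon's criterion at 95% allows, where chance gives about 2.6. Clu in 6m replicate 3 was at 1784 CPM against 1947 to 1960 CPM in the other 6m libraries, and without that library the log2FC of Clu was -0.18 (padj = 0.196, edgeR's quasi-likelihood test). Abca7 in 24m replicate 1 was at 32.01 CPM against 15.34 to 17.67 CPM in the other 24m libraries. Fabp4 was at 0.767 CPM in 24m replicate 4, a single count, and at 0 in the other 24m libraries. The total of 6m replicate 2 was 573152 counts against 818963 to 843706 in the other 6m libraries. The neuron markers summed to 4671 CPM in 6m replicate 1 against 4851 to 4887 CPM in the other 6m libraries.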

How the results depend on the processing

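The number of genes called changed was 1359 in edgeR, 834 in DESeq2, 819 in DESeq2 on quantile-normalized counts, and 989 to 1594 when a single library was left out. Without scaling factors, 1218 of 1441 calls were higher at 24m, against 968 of 1359 with TMM factors. The count of changed carriers was 0 in every setting with both thresholds. By adjusted p alone it was 1, Apod, in edgeR with TMM factors. It was 2 in both fits with quantile normalization (Apod and Apoe) and without 24m replicate 1 (Apod and Clu). Without 6m replicate 2 it was 0, and without both these libraries it was 1, Clu. Of the lipid-handling lists, 3 genes were changed, 2 to 5 with a single library left out, and 5 without 6m replicate 4, where Srebf2 and Vps13a were added. It was also 5 without both 24m replicate 1 and 6m replicate 2, an alternative chosen after seeing the data. Among the carriers the sign turned for Apoe (-0.004 without those 2 libraries, and up to 0.09 with a library left out), for Clu (0.08 with quantile normalization in DESeq2 and in limma-voom) and for Fabp3 (0.02 with library sizes alone). The cause was not tested. With the replicate block, 1308 genes, 0 carriers and 3 list genes were changed, and no call of a carrier or named gene was lost or gained. The numbers did not pair the libraries, since no same-numbered pair correlated above 0.0647. Depth limits Abca1 and Fabp7 most. The p-values of the fits rest on the spread between 4 mice at each age together with variance information shared across all tested genes.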
